A study of Mus musculus with 20 samples.

Results

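The replication-dependent histone genes encode the H1, H2A, H2B, H3 and H4 proteins that package newly copied DNA. They were taken here as every gene of the deposited table with a symbol of the Hist1h to Hist4h series. Only 1 row, whose symbol marks it as a pseudogene, was left out, which gave 67 of 29956 genes. By type they were 6 H1, 20 H2A, 16 H2B, 12 H3 and 13 H4 genes. RNA with a poly(A) tail had been sequenced from melb-a, an immortal mouse cell line that its labels describe as melanoblasts of wt genotype. There were 20 libraries in 5 groups of 4. Parental cells had no virus, and the others were cells given a lentiviral hairpin against luciferase (shLuciferase) or a scrambled one (shScramble), and cells given 1 of the hairpins that target Hira, a histone chaperone gene (shHIRA I, shHIRA II). All groups grew in medium with 40 pM Fgf2, 10 ng/ml SCF and 10% serum. The 4 transduced groups had also had virus for 16 h with 8 µg/ml polybrene and then selection with 1 µg/ml puromycin, so the parental cells differ from them by hairpin, virus and drug together. The series states that the 4 replicates of a group are independent, without saying what separated them, and the p-values measure the spread between these libraries.

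Cells make most of their histone mRNA during S phase, when NPAT and its partners switch on the clustered genes. Unlike other mRNAs, these transcripts normally end without a poly(A) tail, just after a short stem-loop that is bound by SLBP and cut with the help of the U7 particle, and they are destroyed when DNA synthesis stops. Some histone genes also make transcripts that run on past the stem-loop to an ordinary poly(A) site, which is known above all from differentiating or non-dividing cells. HIRA works on the other side of histone supply: it deposits the variant H3.3 outside of replication, from genes that lie outside the clusters. A library made from poly(A) RNA is made to hold the tailed transcripts of these genes and not the bulk of their mRNA.

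The stem-loop was visible in the annotated 3′ ends, and 6 of them are shown because their genes are described at length here. The sequences are the sense strand, 5′ to 3′, from the GENCODE M21 transcripts of GRCm38; capitals mark the 16 bases of the stem-loop and lower case the bases beside it.

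Hist1h2ap: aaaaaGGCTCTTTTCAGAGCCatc
Hist1h2ad: acaaaGGCTCTTTTCAGAGCCatcca
Hist1h1c: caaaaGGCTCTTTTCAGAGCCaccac
Hist3h2a: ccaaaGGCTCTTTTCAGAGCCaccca
Hist1h4i: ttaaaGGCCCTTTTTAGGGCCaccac
Hist1h4j: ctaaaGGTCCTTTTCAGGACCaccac

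The first 4 share 1 stem-loop, which 24 members carry, while Hist1h4i and Hist1h4j each carry another version that 2 members have. What follows the stem-loop set them apart. The annotated transcript of Hist1h2ap (chromosome 13, 21833026 to 21833507, minus strand) stops 3 bases after it, and that of Hist1h2ad (chromosome 13, 23574381 to 23574952, plus strand) after 42. That of Hist1h1c (chromosome 13, 23738808 to 23740367, plus strand) runs on for 840 bases, that of Hist3h2a (chromosome 11, 58954685 to 58956830, plus strand) for 1643, that of Hist1h4i (chromosome 13, 22040636 to 22041362, minus strand) for 330 and that of Hist1h4j (chromosome 13, 21735064 to 21735837, plus strand) for 385. All 6 are single-exon protein-coding genes, and 65 of the 67 members are protein-coding in the annotation. Of the others, 1 is annotated as an unprocessed and 1 as a processed pseudogene. Over all members, 44 of 67 models held a histone stem-loop, and 22 of these ran on for more than 100 bases past it. Of 21877 coding genes in the annotation, 53 held one (0.242%). Most members lie in the Hist1 cluster on chromosome 13 (54 genes), with 10 in Hist2 on chromosome 3, 2 in Hist3 on chromosome 11 and Hist4h4 alone on chromosome 6.

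The genes are near copies of each other, which limits what a read can be assigned to. In 42 of the 67 members over 50% of the 31-base words of the transcripts also occurred in another gene, and in 15 over 90%. For Hist1h2ap this was 93.4%, mostly shared with Hist1h2ao, and for Hist2h2aa1 and Hist2h2aa2 it was every word, so the split between such genes is uncertain. The share was 0.281% in Hist1h1a, 2.82% in Hist2h2be, 3.72% in Hist1h1d, 3.93% in Hist1h1b, 11.4% in Hist1h1c and 18.2% in Hist1h2be. Hist3h2a shares exon sequence with Trim17 on the same strand (32.1%), and exons of Hist1h1e and Hist1h2be overlap each other on 1 strand. The kit kept strand, but the strand setting of the counting is not given in the sources used here, and 23 members overlap an exon on the opposite strand.

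Library totals were 15.0 to 20.7 M counts (M stands for 1e6), of which the members held 0.0154% to 0.0388%. The targeted gene, Hira, was at 85.3, 84.4, 81.9 and 101 CPM (counts per 1e6 scaled counts) in parental cells, 89.8, 72.2, 87.1 and 63.7 with shLuciferase, 81.7, 64.4, 71.2 and 79 with shScramble, 45.4, 26.6, 41.8 and 33.3 with shHIRA I and 63.2, 63.3, 70.9 and 69.8 with shHIRA II. With shHIRA I it lay below every control library and fell (log2 fold change −1.05, SE 0.14, adjusted p = 5.14e-05); with shHIRA II it overlapped the controls (log2 fold change −0.19, SE 0.14, adjusted p = 0.307), so shHIRA II stands here for a label and not for a measured loss of Hira. A mean over both shHIRA groups therefore pools libraries with and without that loss. Mitochondrial genes took 5.50% to 9.96% of counts in the parental and control hairpin libraries, 1.23% to 9.58% with shHIRA I (1.23% in replicate 3) and 2.88% to 4.71% in the libraries labelled shHIRA II. Of the melanocyte markers, Sox10 was at 0 to 29.8 CPM and Ednrb at 0 to 0.170 CPM over the 20 libraries, against 108 to 197 CPM for Pax3 and 105 to 754 CPM for Mitf. In the mean of both shHIRA groups against the controls, 7 of 9 tested melanocyte markers were lower, where 15% of all genes were. With shHIRA I it was 4 of 9 (8.8% of all genes), and under the label shHIRA II 7 of 9 (16.6% of all genes). Summed markers of fibroblasts were at 21.3 to 53.8 CPM in parental and control hairpin libraries, 69.6 to 132 CPM with shHIRA I and 6.94 to 11.2 CPM in the libraries labelled shHIRA II. The fibroblast markers did not move together with shHIRA I. There, 2 of the 4 tested had a log2 fold change above 0 (range −0.85 to 3.65), and both were called higher, as were 10.8% of all genes. Their highest values over the 20 libraries were 99.6 CPM for Dcn, 25.5 for Col1a1, 15.7 for Pdgfra and 5.11 or less for Lum, Col3a1 and Dpt. Summed markers of keratinocytes (6.03 to 35.0 CPM), leukocytes (7.24 to 17.1 CPM) and endothelium (1.18 to 15.8 CPM) were low in all 20, and the part of any of them in the results was not tested. In bulk RNA, fewer cells with a transcript and less RNA per cell cannot be told apart.

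Of the 67 members, 46 had 10 or more counts in at least 4 libraries and were tested by edgeR's quasi-likelihood test, whose Benjamini-Hochberg adjusted p-values over all 13639 genes are given throughout. The 46 were 5 H1, 10 H2A, 10 H2B, 10 H3 and 11 H4 genes. Of the other 21, 12 never reached 10 counts in a library and 9 did so in 1 to 3. At the edge of the filter, Hist1h1a, Hist1h1b, Hist1h3a and Hist1h3e passed with exactly 4 libraries, while Hist1h2ab and Hist1h4m, with 3, did not. Hist1h1a passed through the libraries labelled shHIRA II alone. Hist1h2ba, which is known as the testis form of H2B, was at 0 counts in all 20 libraries.

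H2A transcripts made up most of the histone signal, and they came mainly from 1 gene. On the TPM scale, which divides by length, H2A held 72.6% of the summed level, H4 12.5%, H2B 9.33%, H1 2.83% and H3 2.78%. Hist1h2ap averaged 322 TPM over the 20 libraries (72.9 to 575), which was 69.0% of H2A. Hist1h2ad followed with 88.8 TPM and Hist2h2aa1 with 21.6 TPM. Among H2B genes Hist1h2bc led with 37.8 TPM (63.0% of the type), ahead of Hist1h2bg (5.25 TPM) and Hist2h2be (4.23 TPM). Hist1h1c held 86.5% of H1 at 15.8 TPM, with Hist1h1b at 0.705 and Hist1h1a at 0.699 TPM. Among H4 genes Hist1h4k stood at 37.4 TPM, Hist1h4i at 22.1 and Hist1h4n at 5.29 TPM. The H3 genes were low: Hist1h3c averaged 3.57 TPM, Hist1h3h 2.76 and Hist1h3i 2.27 TPM, down to 0.239 TPM for Hist1h3f.

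The types differed in how their summed levels stood between groups. Summed H1 was at 6.52, 5.73, 6.99 and 4.16 CPM in parental cells, 30.4, 13.8, 34.8 and 34.1 with shLuciferase and 17.8, 31.5, 35.9 and 18.7 with shScramble. Every control hairpin library was above every parental library, with a log2 difference between group means of 2.16. Summed H2B was at 26.1, 25.3, 29.6 and 26.8 CPM in parental cells, 54.2, 61.4, 96 and 92.1 with shLuciferase and 47.4, 102, 100.4 and 76.5 with shScramble, again with no overlap (log2 difference 1.5). Summed H4 was at 11.1, 9.58, 10.6 and 12.3 CPM in parental cells, 22.9, 9.56, 18.5 and 21.9 with shLuciferase and 21.4, 21.2, 19.5 and 18.8 with shScramble, where shLuciferase replicate 2 alone was down at the parental level (log2 difference 0.78).

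Summed H2A overlapped between all groups, at 115 to 181 CPM in parental, 71.2 to 203 CPM in control hairpin, 79.9 to 203 CPM in shHIRA I and 149 to 221 CPM in shHIRA II libraries. Its log2 difference between control hairpins and parental cells was −0.21. That value turns on the leading genes: without Hist1h2ap it was 0.29, and over H2A members with under 50% of shared words it was 1.06. Summed H3 ran from 3.03 to 5.91 CPM in parental to 4.8 to 12.1 CPM in control hairpin libraries (log2 difference 0.68). Its gene of highest mean CPM, Hist2h3c1, swung widely within groups. It was at 2.67, 2.43, 5.60 and 0 CPM with shLuciferase and 1.25, 0, 0 and 4.24 CPM with shScramble, so the H3 sums lean on 1 unsteady gene.

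In the shHIRA groups, the summed levels of H2B and H4 parted, and the H2B sums lean on Hist1h2bc and Hist2h2be. Summed H2B was at 20.7, 71.4, 40.5 and 27.2 CPM with shHIRA I and 33.2, 39.8, 36.7 and 43.1 CPM under the label shHIRA II, where the 4 shHIRA II values lay below all 8 control hairpin values (log2 difference −0.99; −1.08 for shHIRA I). Summed H4 was at 20.1, 13.4, 44.5 and 12.2 CPM with shHIRA I and 38, 54, 36.1 and 36.9 CPM under the label shHIRA II, where all 4 shHIRA II values lay above all 8 controls (log2 difference 1.12; 0.07 for shHIRA I). Summed H1 was at 8.94, 21.3, 24.7 and 9.35 CPM with shHIRA I and 36.7, 48.7, 28.3 and 35.5 CPM under the label shHIRA II, with log2 differences from the controls of −0.82 for shHIRA I and 0.51 for the libraries labelled shHIRA II. These sums are descriptions and carry no test. Single H2B genes did not all go with the H2B sum. Under the label shHIRA II, 4 of 10 tested had a positive log2 fold change (median −0.30). There, 2 were called lower, Hist1h2bc and Hist2h2be, as were 16.6% of all genes. With shHIRA I, 2 of 10 had a positive log2 fold change (median −0.93), and 1 was called lower, as were 8.8% of all genes. Without Hist1h1c, H1 in the libraries labelled shHIRA II stood 1.32 above the controls on the log2 scale.

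**Figure D1:**
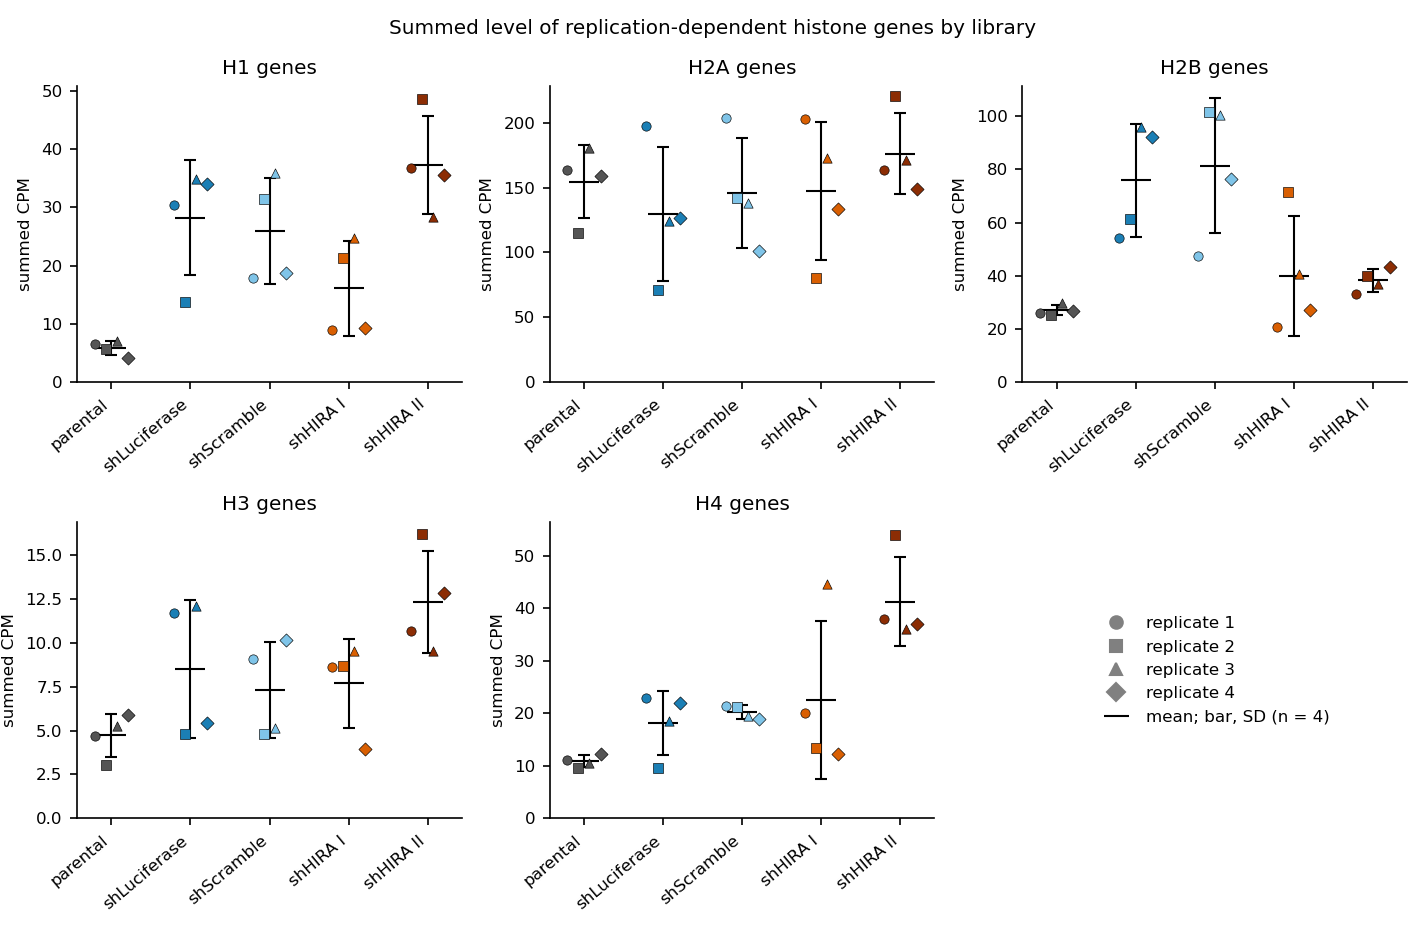
Summed CPM of the H1, H2A, H2B, H3 and H4 genes in each of the 20 libraries, by group, with the group mean as a line and its SD as a bar (n = 4). H1 and H2B are lower in parental cells than in both control hairpin groups, H2A overlaps in all groups, and H4 has its highest mean in the libraries labelled shHIRA II.

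Transduction with a control hairpin and drug selection went with higher levels of 11 histone genes of all 5 types, and no member was called lower. The comparison set the mean of shLuciferase and shScramble against parental cells, and 11 of 46 members were higher (23.9%), where 3.61% of all genes tested were called in either direction, 2.05% as higher and 1.56% as lower. The median log2 fold change was 1.11 over the 46 members, with 39 of them above 0, and 0.01 over all genes. The 46 include genes that passed the count filter only through transduced cells, the groups where they are high. Of the 11, 6 had no parental library of 10 counts and 5 had at least 1. The H3 genes called, Hist1h3d and Hist2h3c2, are both among the 6, so the 5 others hold no H3 gene. In the same libraries 4 of 36 S phase genes fell (11.1%) and none rose, with a median log2 fold change of −0.61. Their part in the result was not tested. Between the control groups, shScramble against shLuciferase gave 0 calls among all 13639 genes by edgeR's quasi-likelihood test (0% of genes), and 0 of the 46 members had an unadjusted p under 0.05; DESeq2 called 4 genes, no member among them.

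Hist1h1c, the most abundant of the linker histone genes here, stood at 5.1, 5.07, 6.37 and 3.6 CPM in parental cells, 27.4, 12, 32 and 30.9 with shLuciferase and 16, 29.4, 33.3 and 16.2 with shScramble. The lowest control hairpin library was above the highest parental one, and the gene rose 4.89-fold (log2 fold change 2.29, SE 0.37, adjusted p = 0.00222). Hist1h1d, another somatic H1 gene, was at 0.43, 0.165, 0.155 and 0.154 CPM in parental cells, 0.889, 1.09, 0.814 and 1.25 with shLuciferase and 0.816, 1.14, 1.19 and 0.561 with shScramble. It rose too, without overlap (log2 fold change 2.08, SE 0.47, adjusted p = 0.0187), on 3 to 7 counts in the parental libraries. The call of Hist1h1d was lost without parental 2, 3 or 4 (adjusted p = 0.0726 to 0.0799).

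The H2B gene Hist1h2bc was at 11.9, 13, 17.2 and 12.6 CPM in parental cells, 31.6, 41.1, 63.7 and 67.6 with shLuciferase and 26.7, 73.5, 69 and 49.3 with shScramble. Both control groups lay wholly above the parental libraries (log2 fold change 1.95, SE 0.39, adjusted p = 0.00799). Hist1h2be, another H2B gene, was at 1.23, 1.6, 1.09 and 1.7 CPM in parental cells, 2.9, 4.06, 4.38 and 4.78 with shLuciferase and 2.23, 6.53, 7.09 and 3.99 with shScramble and rose in the same way, with no overlap (log2 fold change 1.67, SE 0.36, adjusted p = 0.0151). Hist1h2ac, an H2A gene, was at 0.615, 0.165, 0.984 and 0.154 CPM in parental cells, 1.36, 1.78, 2.6 and 3.36 with shLuciferase and 1.03, 3.69, 2.74 and 1.62 with shScramble. Each control hairpin value was above each parental value (log2 fold change 2.23, SE 0.59, adjusted p = 0.0398). Hist1h2be was not called without parental 1 (adjusted p = 0.0565) or parental 3 (adjusted p = 0.0667), and Hist1h2ac not without parental 1, 2 or 4, shLuciferase 3 or 4, shScramble 2 or 3 or shHIRA II 1, 3 or 4 (adjusted p = 0.0501 to 0.135).

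Hist1h2ac and Hist1h2bc start back to back on chromosome 13 and share the stretch between their starts, chr13:23683960-23684198 (GRCm38.p6, RefSeq, minus strand, the strand of Hist1h2ac). It is printed because both neighbours rose. Capitals mark, on either strand, CCAAT (3 matches), the TATA-type word TATAAA (1) and the octamer ATGCAAAT, the word bound by Oct-1 at H2B promoters (1), with no overlap between them.

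Shared promoter of Hist1h2ac and Hist1h2bc: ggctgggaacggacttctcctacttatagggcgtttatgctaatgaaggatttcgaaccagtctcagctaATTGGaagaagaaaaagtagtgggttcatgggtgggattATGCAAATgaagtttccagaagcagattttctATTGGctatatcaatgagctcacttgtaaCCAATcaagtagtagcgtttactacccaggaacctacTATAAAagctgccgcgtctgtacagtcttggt

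In windows of 250 bases before to 50 after the start, RefSeq gave a promoter for 58 members. CCAAT on either strand stood in 49 of them and in 37.4% of 32851 promoters of all genes. TATAAA stood in 35 of the 58, against 13.6% of all promoters. The octamer stood in 12 of the 58 (7 H2A and 5 H2B genes), against 1.74% of all. CCAAT split the types: it was in every H1, H2A, H2B and H3 window and in 3 of 12 H4 windows. These matches are words in a window and not measured binding.

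Of the H4 genes, Hist1h4j had the lowest adjusted p. It was at 0.246, 0.22, 0.311 and 0.257 CPM in parental cells, 1.3, 0.693, 1.53 and 1.82 with shLuciferase and 1.2, 2.33, 2.43 and 1.31 with shScramble, with the groups apart, and rose 5.89-fold (log2 fold change 2.56, SE 0.38, adjusted p = 0.00146). Hist1h4h was at 0.123, 0, 0.104 and 0.206 CPM in parental cells, 0.534, 0.396, 0.611 and 2.11 with shLuciferase and 0.707, 0.852, 1.29 and 0.873 with shScramble and likewise did not overlap (log2 fold change 3.0, SE 0.63, adjusted p = 0.011). These 2 calls rested on 4 to 6 and 0 to 4 counts per parental library, so the sizes of the changes are loose.

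Hist1h4c was at 0, 0.22, 0 and 0.103 CPM in parental cells, 0.356, 0.198, 0.865 and 0.911 with shLuciferase and 0.707, 0.795, 0.362 and 0.437 with shScramble. The library shLuciferase 2 lay within the parental range and the other control libraries above it (log2 fold change 2.73, SE 0.69, adjusted p = 0.0335). Hist4h4, the lone member on chromosome 6, was at 0.184, 0.275, 0.725 and 0.308 CPM in parental cells, 2.13, 1.44, 0.458 and 1.14 with shLuciferase and 1.31, 1.42, 0.879 and 1.19 with shScramble. One shLuciferase library, replicate 3, lay inside the parental range (log2 fold change 1.7, SE 0.44, adjusted p = 0.0364). Hist1h4c was not called without parental 1, 3 or 4, shLuciferase 3 or 4 or shScramble 2 (adjusted p = 0.0592 to 0.11), nor Hist4h4 without parental 1, 2 or 4, shLuciferase 1 or 4 or shScramble 2 or 4 (adjusted p = 0.0519 to 0.122).

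Among H3 genes Hist2h3c2 was at 0, 0.11, 0.207 and 0.257 CPM in parental cells, 1.13, 0.891, 1.17 and 0.683 with shLuciferase and 1.36, 0.738, 1.03 and 0.624 with shScramble. The groups did not overlap (log2 fold change 2.64, SE 0.70, adjusted p = 0.0431), on 0 to 5 counts in parental libraries. Hist1h3d was at 0.0615, 0.33, 0.363 and 0.257 CPM in parental cells, 1.24, 0.347, 1.63 and 1.54 with shLuciferase and 0.544, 1.25, 1.14 and 0.437 with shScramble, where shLuciferase replicate 2 came down to the highest parental values (log2 fold change 1.94, SE 0.52, adjusted p = 0.0448). Both calls were close to the threshold: Hist2h3c2 lost its call without parental 1, 2, 3 or 4, shLuciferase 1, 3 or 4, shScramble 1, 2 or 3 or shHIRA II 1, 2, 3 or 4 (adjusted p = 0.0503 to 0.13), and Hist1h3d without parental 1, 2, 3 or 4, shLuciferase 1, 3 or 4, shScramble 2 or 3 or shHIRA II 1, 2, 3 or 4 (adjusted p = 0.0537 to 0.133). Over all members the count fell from 11 to 6 without parental replicate 1, 2 or 3, to 5 without parental replicate 4, to 7 without shLuciferase replicate 3, to 6 without shLuciferase replicate 4 and to 6 without shScramble replicate 2. The count was also 6 without a filter on low counts and 17 with DESeq2.

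The 2 most abundant histone genes were not called. Hist1h2ap was at 107, 69.4, 112 and 104 CPM in parental cells, 126, 18.7, 55.5 and 54.1 with shLuciferase and 131, 62.5, 60.9 and 42.7 with shScramble. The control hairpin libraries lay on both sides of the parental ones, with shLuciferase 1 and shScramble 1 above them all and shLuciferase 2 far below (log2 fold change −0.51, SE 0.42, adjusted p = 0.592). Hist1h2ad was at 40.7, 26.8, 43 and 38.8 CPM in parental cells, 42, 8.17, 19.2 and 22.5 with shLuciferase and 47.3, 22.7, 21.4 and 14.8 with shScramble, with replicate 1 the highest of each control group and shLuciferase 2 again the lowest of all (log2 fold change −0.60, SE 0.42, adjusted p = 0.518).

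Within the transduced groups the extremes of Hist1h2ap were mostly those of the S phase genes. The summed level of these 36 genes was 4967, 4943, 4959 and 5465 CPM in parental libraries, 4799, 1874, 3044 and 3146 with shLuciferase, 5063, 2984, 2775 and 2461 with shScramble, 5259, 2128, 4441 and 5292 with shHIRA I and 4254, 5199, 4534 and 3891 in the libraries labelled shHIRA II. Within shLuciferase, replicate 1 was highest and replicate 2 lowest in both, and within shScramble replicate 1 was highest and replicate 4 lowest in both. Within shHIRA I, replicate 2 was lowest in both, while the highest was replicate 1 for Hist1h2ap and replicate 4 for the S phase genes. Within shHIRA II replicate 2 was highest and replicate 4 lowest in both. Hist1h2bc and Hist3h2a showed no single relation to these sums. Both were lowest in replicate 1 of shLuciferase and of shScramble, the libraries of those groups highest in S phase genes (Hist3h2a at 14.2 and 12.1 CPM). Within shHIRA I, Hist1h2bc was highest in replicate 2, the lowest in S phase genes, and Hist3h2a in replicate 3. Within shHIRA II both were highest in replicate 2, the library highest in S phase genes.

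**Figure D2:**
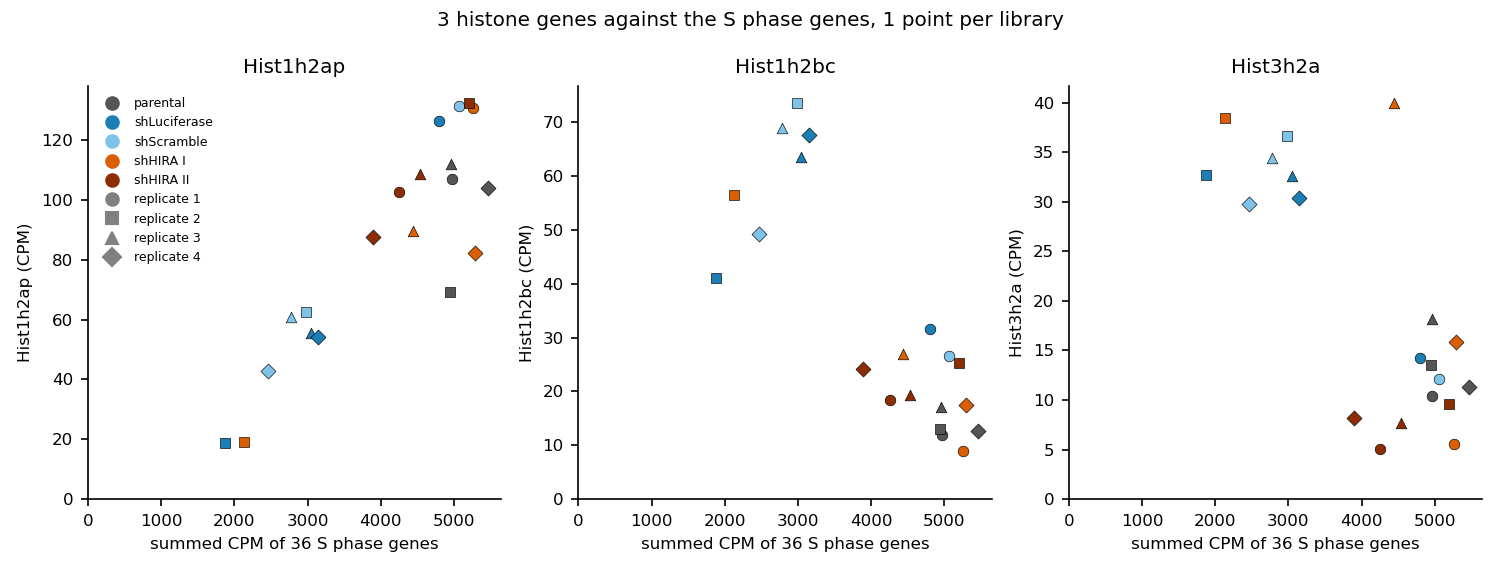
Summed S phase genes in CPM on the x axis against Hist1h2ap, Hist1h2bc and Hist3h2a in CPM on the y axes, with 1 point per library coloured by group. The library lowest in S phase genes is also lowest in Hist1h2ap within shLuciferase, shScramble, shHIRA I and shHIRA II, and shLuciferase 1 and shScramble 1, the highest of their groups in S phase genes, are the lowest of those groups in Hist1h2bc and Hist3h2a, while shHIRA II 2 is the highest of its group in S phase genes and in all 3 members.

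Members were also grouped by how their annotated transcripts end, which the choice of members did not use. In 22 genes the model ran on for more than 100 bases past the stem-loop. Of these, 19 were tested and 9 rose on transduction, where 2.05% of all genes tested were called higher. All 19 log2 fold changes were above 0 (0.36 to 2.73, median 1.70). Of the 9, Hist1h1d, Hist1h3d, Hist1h4c, Hist1h4j and Hist2h3c2 passed the count filter only through transduced cells, where they are high. The 9 calls and the signs therefore lean in part on the filter. In 22 genes the model ended within 100 bases of the stem-loop. Of these, 16 were tested and 1, Hist1h4h, rose (median 0.23). Hist1h4h also passed the filter only through transduced cells. Of 4 genes with a long 3′ end and no stem-loop match (Hist1h2bc, Hist1h2bq, Hist1h2br and Hist2h2be), 1 rose, Hist1h2bc (median 1.42). The other 19 models had no match and ended at or near the coding end; 7 were tested and none was called (median 0.80, 7 above 0). These classes differ in length and in shared sequence as well, with median lengths of 1249 and 518 bases and median shared words of 29.4% and 67.7% for the first 2, and no test was made between them.

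Levels were also summed by class. Genes with transcripts running past the stem-loop summed to 28.8, 30.1, 37.5 and 30.1 CPM in parental libraries, 73.6, 65.7, 104 and 91.4 with shLuciferase and 54.6, 101, 102 and 75.5 with shScramble, with every control hairpin value above every parental one. Genes ending near the stem-loop summed to 159, 103, 166 and 153 CPM in parental libraries, 189, 38.6, 92.7 and 99.4 with shLuciferase and 199, 105, 104 and 75.4 with shScramble, and overlapped. This overlap rests on Hist1h2ap and Hist1h2ad, which held 93.0% to 93.7% of that sum in parental and 69.6% to 90% in control hairpin libraries; the other 20 genes summed to 6.50 to 11.1 CPM in parental and 11.7 to 22.8 CPM in control hairpin libraries, without overlap. In the shHIRA groups the first class was at 37.8, 88, 98 and 39.2 CPM with shHIRA I and 77.3, 105, 69.8 and 83.5 CPM under the label shHIRA II. The second was at 203, 39.9, 136 and 120.4 CPM with shHIRA I and 165, 221, 171 and 149 CPM under the label shHIRA II. The 4 genes with a long end and no stem-loop match summed higher in every control hairpin library than in every parental one. In this sum all 4 shHIRA II libraries lay below all 8 controls. It was 20.6 to 25.7 CPM in parental, 37.7 to 90.1 in control hairpin, 15.3 to 62.7 in shHIRA I and 28 to 32.5 CPM in shHIRA II libraries. Most of it came from Hist1h2bc and Hist2h2be, and the other members of the class overlapped between these groups. Hist1h2bq was at 0 to 0.496 CPM in parental, 0 to 1.07 in control hairpin and 0.284 to 2.05 in shHIRA II libraries. For Hist1h2br the ranges were 0.0551 to 0.570, 0.259 to 1.87 and 0.0513 to 1.54 CPM.

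**Figure D3:**
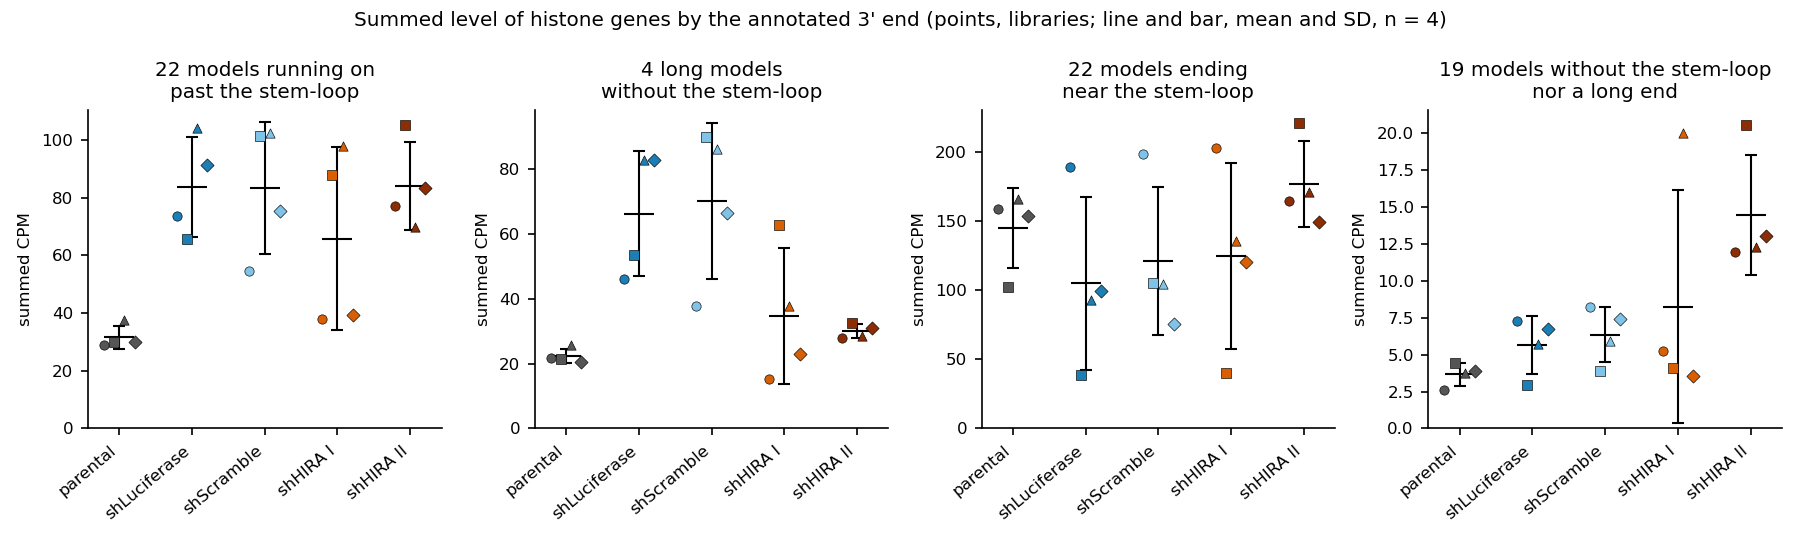
Summed CPM of the members by the annotated end of their transcripts, in each of the 20 libraries by group, with the group mean as a line and its SD as a bar (n = 4). Genes whose models run on past the stem-loop are lowest in the 4 parental libraries, while genes ending near it, mainly Hist1h2ap and Hist1h2ad, overlap between parental and control hairpin libraries.

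In the pooled shHIRA comparison, the mean of both shHIRA groups against the mean of both control hairpin groups, 4 members were lower and 2 higher. Hira itself fell in the shHIRA I libraries and overlapped the controls in those labelled shHIRA II, so the calls are not those of a loss of Hira alone, and each hairpin's own values are given beside them. That is 6 of 46 (13.0%), below the 29.1% of all genes called in either direction (14.1% higher, 15% lower), and the median log2 fold change was 0.03 over the members and 0.03 over all genes. All 3 H2B calls were lower, no H3 gene was called, and H1 and H4 gave 1 higher call each. Without shScramble replicate 2 the count was 3, as it was without the 2 libraries of lowest mitochondrial share, and with only the groups compared it was 4. Of 36 S phase genes 10 were higher (27.8%, with 14.1% of all genes higher) and none lower (median 0.47); their part in the result was not tested. This comparison and those of the single hairpins share their 8 control libraries with the comparison to parental cells.

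Hist2h2be, an H2B gene of the Hist2 cluster on chromosome 3 (96221119 to 96223738, plus strand), was at 9.28, 7.82, 7.98 and 7.45 CPM in parental cells, 12.9, 11.3, 17.3 and 13.5 with shLuciferase, 9.19, 14.3, 16.3 and 16 with shScramble, 4.55, 4.62, 9.71 and 4.65 with shHIRA I and 7.73, 5.59, 6.98 and 5.61 under the label shHIRA II. The shHIRA I libraries lay below every shLuciferase library, though replicate 3 (9.71 CPM) was above the lowest shScramble value, and the shHIRA II libraries lay below all 8 controls. It fell in the pooled comparison (log2 fold change −1.17, SE 0.18, adjusted p = 9.95e-05), with shHIRA I (log2 fold change −1.24, SE 0.23, adjusted p = 0.000835) and under the label shHIRA II (log2 fold change −1.09, SE 0.23, adjusted p = 0.0013). It passed the threshold in all 29 alternatives run for each of these comparisons, and 2.82% of its words are shared. On transduction its log2 fold change was 0.77 (SE 0.22, adjusted p = 0.0632).

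Hist1h2bc, at 8.94, 56.5, 26.9 and 17.5 CPM with shHIRA I and 18.5, 25.3, 19.4 and 24.1 CPM under the label shHIRA II against the control values above, fell in the pooled comparison (log2 fold change −1.11, SE 0.29, adjusted p = 0.00753). The libraries labelled shHIRA II lay below all controls and above all parental libraries, while shHIRA I spread from below the parental values to within the controls (replicate 2). It fell in the libraries labelled shHIRA II (log2 fold change −1.27, SE 0.37, adjusted p = 0.0133); with shHIRA I the log2 fold change was −0.94 (adjusted p = 0.077). Hist1h2bg, another H2B gene of the Hist1 cluster, was at 0.922, 0.991, 0.673 and 1.23 CPM in parental cells, 1.42, 2.33, 5.95 and 2.16 with shLuciferase, 2.34, 3.18, 5.38 and 3.68 with shScramble, 0.941, 2.62, 0.0684 and 0.89 with shHIRA I and 0.512, 0.461, 1.33 and 3.2 under the label shHIRA II. Its groups overlapped, with shHIRA II replicate 4 among the controls, and it fell in the pooled comparison (log2 fold change −1.39, SE 0.49, adjusted p = 0.0385) but was not called without shLuciferase 3, shScramble 2, 3 or 4, shHIRA I 1 or 4 or shHIRA II 1, 2 or 3 (adjusted p = 0.0511 to 0.106).

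Hist3h2a, an H2A gene beside Trim17, was at 10.4, 13.5, 18.1 and 11.3 CPM in parental cells, 14.2, 32.7, 32.6 and 30.4 with shLuciferase, 12.1, 36.7, 34.5 and 29.8 with shScramble, 5.59, 38.5, 40 and 15.8 with shHIRA I and 5.06, 9.62, 7.7 and 8.2 under the label shHIRA II. The 4 shHIRA II values lay below every control and every parental library, while shHIRA I split into replicates 2 and 3, above all controls, and replicates 1 and 4, among or below the lowest controls. It fell in the libraries labelled shHIRA II (log2 fold change −1.87, SE 0.43, adjusted p = 0.00302), while with shHIRA I, where Hira fell, its log2 fold change was −0.16 (adjusted p = 0.824). The pooled value lay between (log2 fold change −1.01, SE 0.32, adjusted p = 0.0247). The pooled call was lost without shScramble 2 (adjusted p = 0.0506) or shHIRA II 1 (adjusted p = 0.054).

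The 2 higher members were Hist1h4i and Hist1h1e. Hist1h4i, an H4 gene whose model runs on past the stem-loop, was at 6.39, 4.96, 6.01 and 7.96 CPM in parental cells, 11.5, 3.42, 9.41 and 6.72 with shLuciferase, 10, 9.99, 7.86 and 6.42 with shScramble, 10.8, 6.19, 20.5 and 7.57 with shHIRA I and 19.3, 27, 17.2 and 18.2 under the label shHIRA II. All shHIRA II libraries were above all others except shHIRA I replicate 3 (20.5 CPM), the library with the lowest mitochondrial share. It rose in the pooled comparison (log2 fold change 0.89, SE 0.25, adjusted p = 0.0118); with shHIRA I alone the log2 fold change was 0.46 (adjusted p = 0.308). Hist1h1e, a linker histone gene, was at 0.43, 0.33, 0.311 and 0.257 CPM in parental cells, 0.889, 0.594, 1.32 and 1.48 with shLuciferase, 0.326, 0.511, 0.983 and 0.998 with shScramble, 0.679, 1.0, 1.23 and 0.594 with shHIRA I and 1.88, 3.22, 2.26 and 2.64 under the label shHIRA II. The shHIRA II libraries lay above all others, and shHIRA I lay within the range of the controls (pooled log2 fold change 0.76, SE 0.28, adjusted p = 0.0494; shHIRA I alone 0.01, adjusted p = 0.992). That call was lost without parental 1, 2, 3 or 4, shLuciferase 1, 2 or 3, shScramble 1 or 2, shHIRA I 2 or 3 or shHIRA II 2, 3 or 4 (adjusted p = 0.0531 to 0.0959).

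Mitochondrial share moved with these groups. With it as a covariate, Hist2h2be kept its pooled call (adjusted p = 0.000114) and the other 5 did not: adjusted p was 0.0898 for Hist1h2bc, 0.113 for Hist3h2a, 0.256 for Hist1h2bg, 0.337 for Hist1h1e and 0.614 for Hist1h4i.

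**Figure D4:**
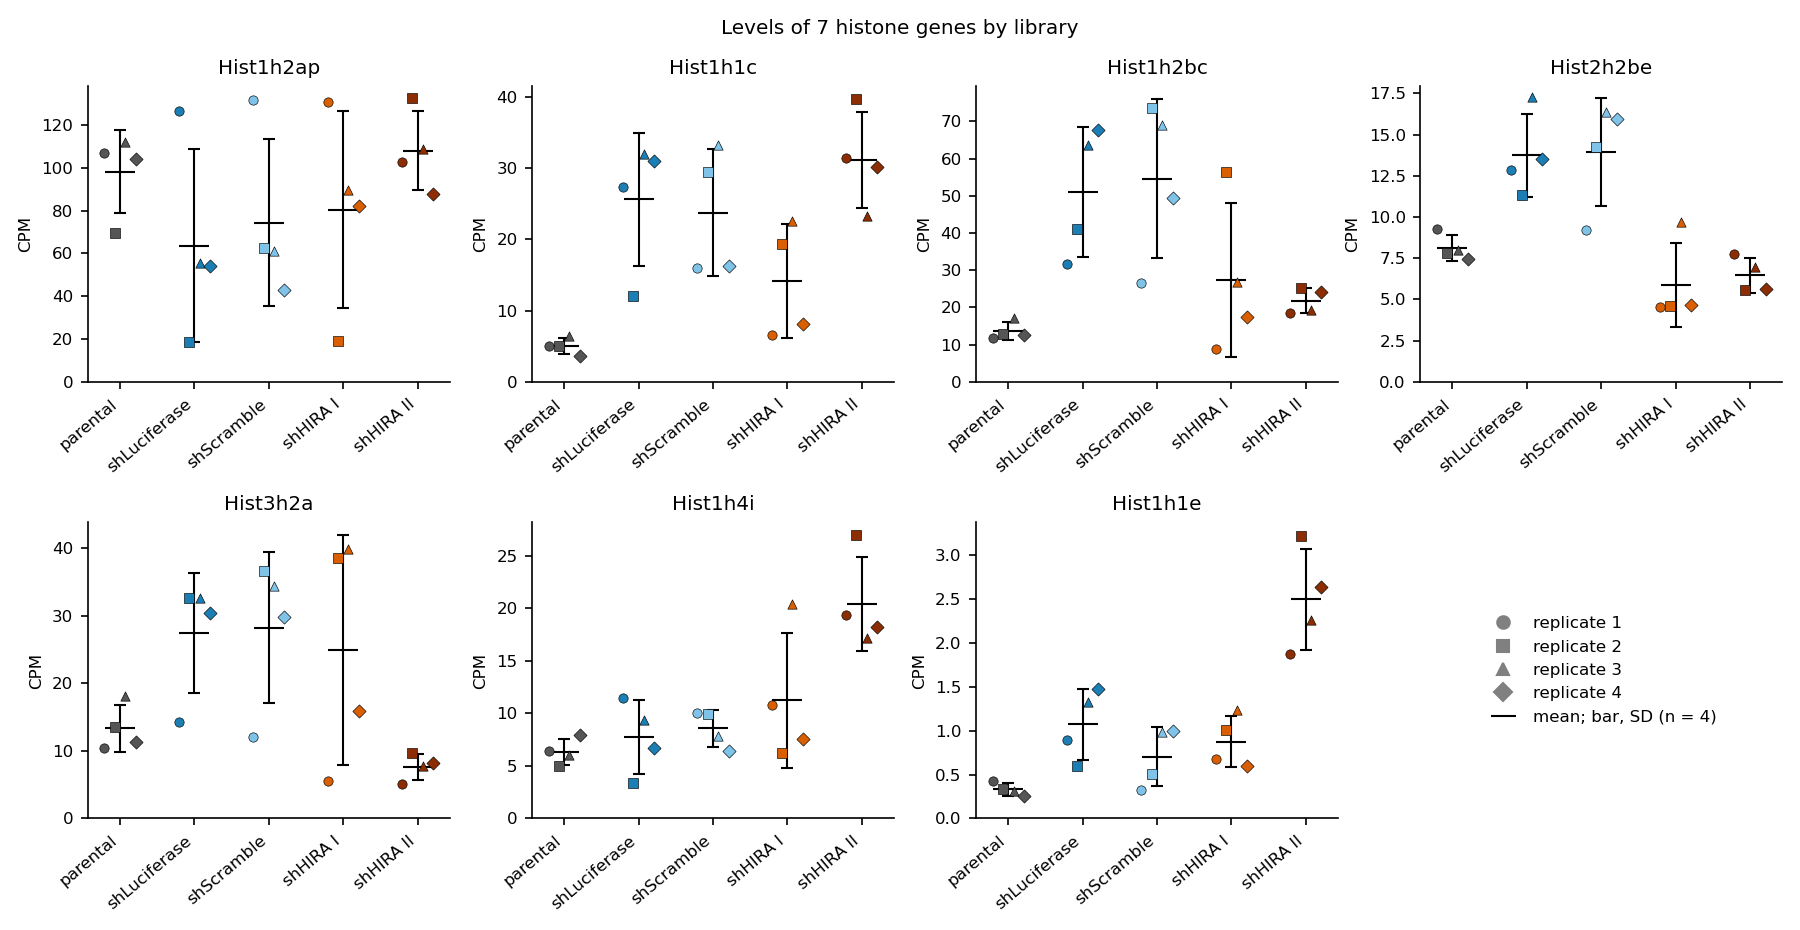
CPM of 7 members in each of the 20 libraries, by group, with the group mean as a line and its SD as a bar (n = 4). Hist2h2be and Hist1h2bc are lower in the libraries labelled shHIRA II than in both control groups, Hist1h4i and Hist1h1e are higher, and Hist1h1c is lowest in parental cells.

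With shHIRA I alone, 1 of 46 members was called (2.17%, with 19.6% of all genes called in either direction, 8.8% as lower): Hist2h2be, described above. The median log2 fold change of the members was −0.40, and 0.05 over all genes, and 9 members had an unadjusted p under 0.05. Leaving out shLuciferase replicate 2 or shHIRA I replicate 3 gave 2 calls, shScramble replicate 1 or shHIRA I replicate 1 gave 3, and shHIRA I replicate 2 gave 4. The count was 4 with DESeq2, 3 with limma on log2(TPM + 0.5), and 2 each without a filter, with mitochondrial share as a covariate and without the 2 libraries of lowest mitochondrial share.

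In the libraries labelled shHIRA II, 7 members were higher and 3 lower, 10 of 46 (21.7%) where 32.2% of all genes were called in either direction. The higher ones were 3 H1 genes, 1 H3 gene and 3 H4 genes. The lower ones were the H2B genes Hist1h2bc and Hist2h2be and the H2A gene Hist3h2a. Of the 7 higher ones, Hist1h1a had no control library of 10 counts. It entered the test through the shHIRA II libraries alone, so that it had to differ, and 6 remain without it. Among these 6, Hist1h1b passed the filter with 4 libraries, 3 of them labelled shHIRA II and 1 shLuciferase. Its entry thus leaned on the group where it is high. Leaving out single libraries gave 8 to 11 calls.

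Hist1h1a and Hist1h1b, linker histone genes, were near the limit of detection elsewhere. Hist1h1a was at 0.307, 0, 0 and 0.103 CPM in parental cells, 0.415, 0.0495, 0.204 and 0.0569 with shLuciferase, 0.163, 0.114, 0.155 and 0.437 with shScramble, 0.366, 0.0557, 0.41 and 0.148 with shHIRA I and 1.02, 1.67, 0.718 and 0.674 under the label shHIRA II. The 4 shHIRA II libraries were above the other 16, a description only, since these libraries brought it past the filter. Hist1h1b was at 0.123, 0.11, 0.104 and 0 CPM in parental cells, 0.711, 0.0495, 0.458 and 0.285 with shLuciferase, 0.272, 0.114, 0.155 and 0.0624 with shScramble, 0.366, 0.0557, 0.274 and 0.148 with shHIRA I and 1.19, 1.61, 0.513 and 0.505 under the label shHIRA II, where shLuciferase replicate 1 lay within the shHIRA II range (log2 fold change 1.97, SE 0.56, adjusted p = 0.0121).

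Hist1h1a had 12 to 29 counts per shHIRA II library and 0 to 7 in each of the other libraries. Without shHIRA II 2 (adjusted p = 0.0658), Hist1h1b was not called. Hist1h1e rose with a lower adjusted p than in the pooled comparison (log2 fold change 1.52, SE 0.33, adjusted p = 0.0017).

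Hist1h3b, the only H3 gene called, was at 0.553, 0.165, 0.622 and 0.514 CPM in parental cells, 0.83, 0.149, 0.407 and 0.569 with shLuciferase, 0.49, 0.909, 0.673 and 0.749 with shScramble, 0.679, 0.446, 0.342 and 0.495 with shHIRA I and 1.42, 2.02, 1.49 and 1.52 under the label shHIRA II. Every shHIRA II value was above every other (log2 fold change 1.45, SE 0.37, adjusted p = 0.00567). Of the H4 genes Hist1h4i rose with the lowest adjusted p (log2 fold change 1.32, SE 0.29, adjusted p = 0.00211). Hist1h4d, whose model runs on past the stem-loop, was at 0.43, 0.385, 0.466 and 0.308 CPM in parental cells, 1.3, 0.347, 0.967 and 0.626 with shLuciferase, 0.707, 0.795, 0.621 and 0.749 with shScramble, 0.575, 0.501, 1.44 and 0.247 with shHIRA I and 1.88, 2.3, 2.1 and 1.4 under the label shHIRA II; the shHIRA II libraries lay above all controls, and shHIRA I replicate 3 lay within their range (log2 fold change 1.33, SE 0.37, adjusted p = 0.0107).

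Hist1h4k, whose sequence is 86.2% shared with other H4 genes, was at 0.553, 2.53, 2.02 and 1.49 CPM in parental cells, 1.96, 1.34, 1.93 and 4.27 with shLuciferase, 2.99, 2.56, 2.38 and 4.87 with shScramble, 1.78, 2.84, 15.1 and 0.94 with shHIRA I and 6.31, 10.9, 6.36 and 6.96 under the label shHIRA II. The shHIRA II libraries were above all 8 controls and shHIRA I replicate 3 was above them all (log2 fold change 1.47, SE 0.53, adjusted p = 0.0398). The call did not hold without shLuciferase 1, 2 or 3, shScramble 1, 2 or 3 or shHIRA II 1, 2, 3 or 4 (adjusted p = 0.051 to 0.128). With mitochondrial share as a covariate, 2 of the 10 calls remained: Hist2h2be (adjusted p = 0.000629) and Hist3h2a (adjusted p = 0.0205). That share was 2.88% to 4.71% in the libraries labelled shHIRA II and 6.43% to 9.96% in the control hairpin libraries, without overlap. Share and label therefore cannot be told apart in this comparison.

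**Figure D5:**
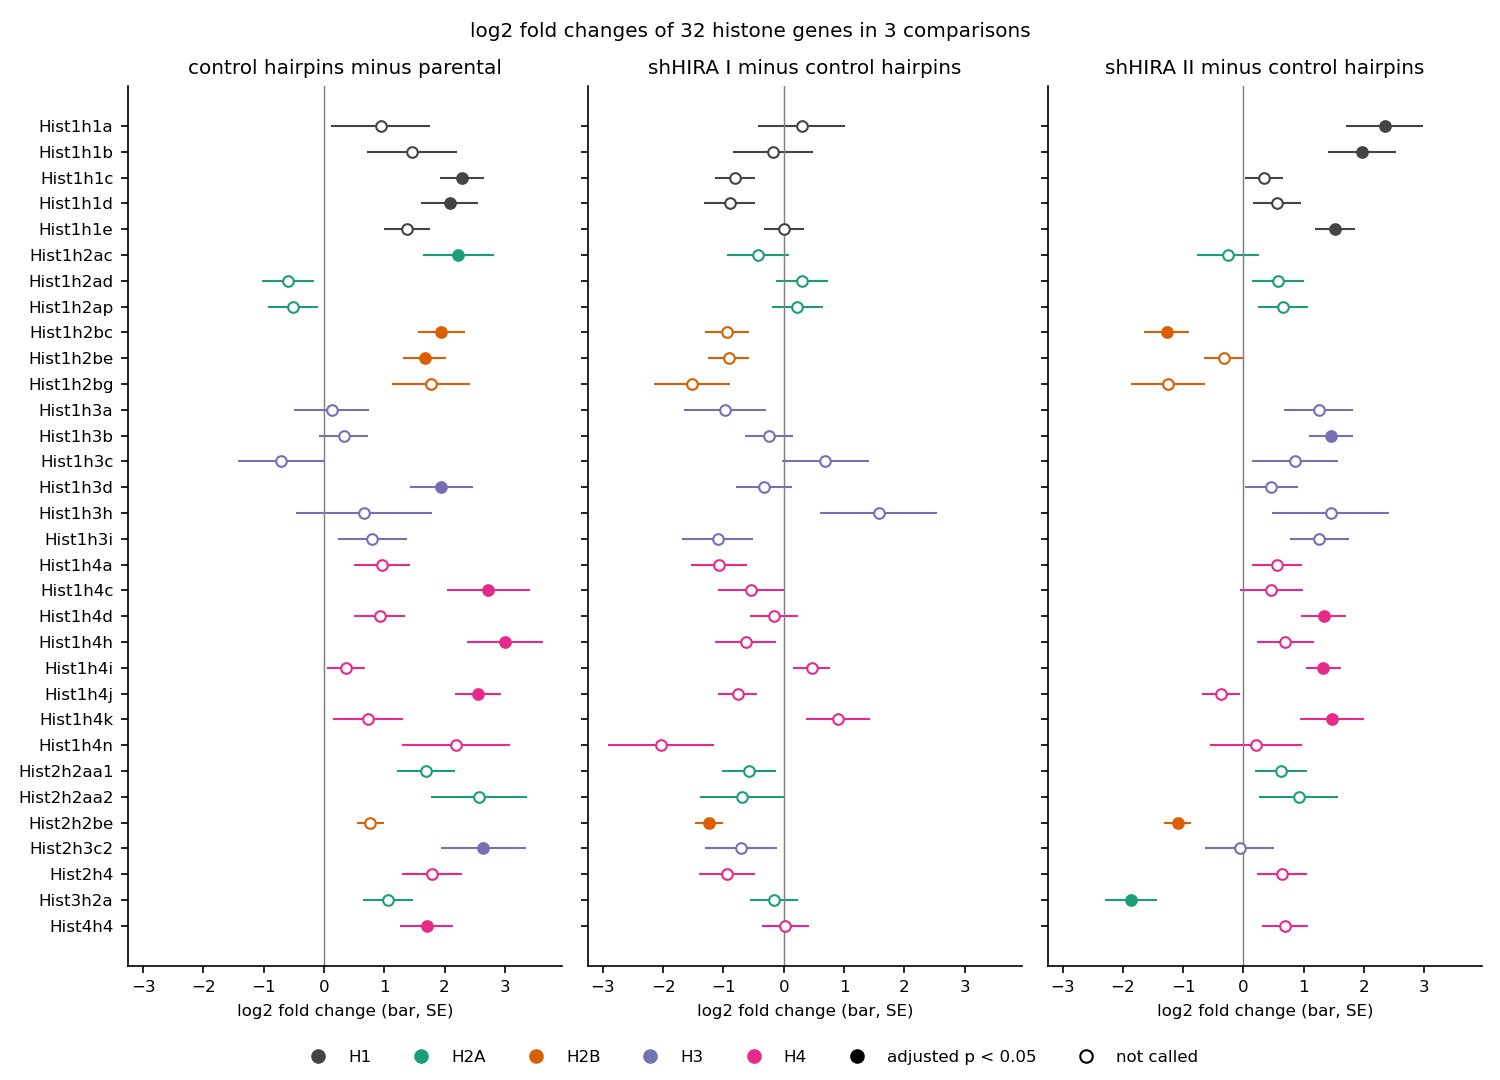
Log2 fold changes with SE of 32 members for the control hairpins against parental cells, shHIRA I against the control hairpins and shHIRA II against the control hairpins, coloured by type, with filled points for an adjusted p under 0.05. Filled points lie right of 0 on transduction, only Hist2h2be is filled with shHIRA I, and with shHIRA II the H1, H3 and H4 points that are filled lie right of 0 and the H2A and H2B ones left. Hist1h1a passed the count filter through shHIRA II alone.

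The hairpins themselves were set against each other. In shHIRA II minus shHIRA I, 10 members were higher and 1 lower, 11 of 46 (23.9%), with 20.9% of all genes called in either direction (8.56% higher). They were 4 H1, 3 H3 and 3 H4 genes, and the lower one was Hist3h2a (log2 fold change −1.71, SE 0.47, adjusted p = 0.0141). Of the 10 higher ones, Hist1h1b, Hist1h3a, Hist1h3i and Hist1h4a had no shHIRA I library of 10 counts and 2 to 4 shHIRA II libraries of 10 counts, so their passing the filter leaned on the group where they are high. The count was 3 with only the groups compared, 6 with mitochondrial share as a covariate, 6 without a filter and 7 without the 2 libraries of lowest mitochondrial share. S phase genes gave no call here (0 of 36, 1 with an unadjusted p under 0.05). Leaving out shHIRA I replicate 2 or shHIRA II replicate 1 gave 7 calls each, and leaving out shHIRA I replicate 4 or shHIRA II replicate 2 gave 4 each.

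All 5 H1 genes tested had a positive difference. Hist1h1c was at 6.59, 19.4, 22.5 and 8.06 CPM with shHIRA I and 31.3, 39.7, 23.2 and 30.1 CPM under the label shHIRA II, with all shHIRA II values above all shHIRA I values (log2 fold change 1.14, SE 0.38, adjusted p = 0.0373). Hist1h1d was at 0.836, 0.78, 0.137 and 0.297 CPM with shHIRA I and 1.02, 2.02, 1.39 and 1.29 CPM under the label shHIRA II, also apart (log2 fold change 1.45, SE 0.48, adjusted p = 0.0365). Hist1h1e (log2 fold change 1.51, SE 0.40, adjusted p = 0.0112) and Hist1h1b (log2 fold change 2.15, SE 0.70, adjusted p = 0.0357) passed as well, while Hist1h1a was not called. Hist1h1e kept its call in all 29 alternatives. The others of the 4 did not: Hist1h1c was lost without shHIRA I 1 or 4 or shHIRA II 1, 2 or 4 (adjusted p = 0.0579 to 0.113), Hist1h1d without shHIRA I 3 or 4 or shHIRA II 2, 3 or 4 (adjusted p = 0.0544 to 0.106), and Hist1h1b without shHIRA I 2 or 4 or shHIRA II 1 or 2 (adjusted p = 0.0803 to 0.112).

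Of the H3 genes Hist1h3i was at 0.43, 0.22, 0 and 0.257 CPM in parental cells, 0.474, 0.099, 0.153 and 0.399 with shLuciferase, 0.87, 0.568, 0.362 and 0.437 with shScramble, 0.157, 0.167, 0.205 and 0.198 with shHIRA I and 1.25, 0.921, 1.08 and 0.561 under the label shHIRA II. The shHIRA II libraries were above every parental, shLuciferase and shHIRA I library and overlapped shScramble (log2 fold change 2.35, SE 0.64, adjusted p = 0.0132), although 93.2% of its sequence is shared. Hist1h3b differed in the same direction (log2 fold change 1.69, SE 0.45, adjusted p = 0.0122). Hist1h3a was at 0.246, 0.33, 0.363 and 0.36 CPM in parental cells, 0.711, 0.198, 0.254 and 0.114 with shLuciferase, 0.762, 0.227, 0.362 and 0.25 with shScramble, 0.47, 0, 0.137 and 0.0989 with shHIRA I and 0.398, 1.55, 0.975 and 0.505 under the label shHIRA II, with 1 shHIRA I library, replicate 1, within the shHIRA II range (log2 fold change 2.22, SE 0.74, adjusted p = 0.0378). It lost its call without shHIRA I 2, 3 or 4 or shHIRA II 2 or 3 (adjusted p = 0.0536 to 0.125).

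Of the H4 genes Hist1h4a was at 0.369, 0.0551, 0.207 and 0.565 CPM in parental cells, 0.652, 0.347, 0.56 and 0.74 with shLuciferase, 0.544, 0.681, 0.828 and 0.374 with shScramble, 0.47, 0.279, 0.205 and 0.148 with shHIRA I and 0.796, 1.15, 0.872 and 0.674 under the label shHIRA II. The shHIRA II values lay above the shHIRA I values and overlapped the controls (log2 fold change 1.63, SE 0.52, adjusted p = 0.0303). Hist2h4, the H4 gene of the Hist2 cluster, was at 0.184, 0.22, 0.104 and 0.103 CPM in parental cells, 0.593, 0.594, 0.509 and 0.968 with shLuciferase, 0.381, 0.397, 0.673 and 0.312 with shScramble, 0.627, 0.111, 0.274 and 0.0989 with shHIRA I and 0.682, 1.27, 0.616 and 0.842 under the label shHIRA II, where shHIRA I replicate 1 lay just inside the shHIRA II range (log2 fold change 1.59, SE 0.51, adjusted p = 0.0339). Hist1h4d differed too (log2 fold change 1.49, SE 0.46, adjusted p = 0.0256). Hist1h4a was lost without shHIRA I 2 or 4 or shHIRA II 1 or 2 (adjusted p = 0.0503 to 0.0921), Hist2h4 without shHIRA I 2 or 4 or shHIRA II 2 or 4 (adjusted p = 0.0587 to 0.103), and Hist1h4d without shHIRA I 1, 2 or 4 or shHIRA II 2 (adjusted p = 0.0534 to 0.0773).

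Against parental cells, the mean of both shHIRA groups was higher for 19 of 46 members and lower for none, with 24.4% of all genes called in either direction and 12.4% as higher. The count was 11 without parental replicate 4 and 12 with only the groups compared. They were all 5 tested H1 genes, 3 H2A, 1 H2B, 2 H3 and 8 H4 genes. Of the 19, 11 had no parental library of 10 counts and passed the filter only through transduced cells, where they are high. The other 8 had at least 1. The median log2 fold change was 1.21 over the members and 0.01 over all genes. The 11 members that rose on transduction were at log2 fold changes of 0.84 to 3.04 here, with Hist1h2bc the lowest and the sole one not called (adjusted p = 0.105). The comparisons share the parental libraries.

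Of the members not named under transduction, Hist1h1e rose (log2 fold change 2.14, SE 0.39, adjusted p = 0.000766), as did Hist1h4i (log2 fold change 1.26, SE 0.32, adjusted p = 0.00822). Hist2h2aa1 was at 1.11, 2.75, 3.99 and 1.13 CPM in parental cells, 5.1, 5.64, 9.01 and 9.28 with shLuciferase, 2.72, 11.5, 7.6 and 7.24 with shScramble, 2.25, 9.03, 6.57 and 1.73 with shHIRA I and 8.3, 12.8, 9.54 and 14 under the label shHIRA II. Every shLuciferase and shHIRA II library was above the parental range (log2 fold change 1.71, SE 0.48, adjusted p = 0.0145). Hist2h2aa2, with which it shares all its sequence, was at 1.66, 0, 0 and 0.668 CPM in parental cells, 2.79, 2.97, 2.39 and 4.16 with shLuciferase, 3.97, 3.07, 6.57 and 1.68 with shScramble, 1.05, 2.28, 3.9 and 1.34 with shHIRA I and 7.0, 12.7, 3.69 and 2.53 under the label shHIRA II. The controls and shHIRA II lay above the parental libraries and shHIRA I overlapped them (log2 fold change 2.68, SE 0.81, adjusted p = 0.0206). Hist1h1a, which passed the filter through shHIRA II alone, Hist1h1b (log2 fold change 2.35, SE 0.74, adjusted p = 0.0262), Hist1h4d (log2 fold change 1.51, SE 0.43, adjusted p = 0.0155), Hist1h4k (log2 fold change 1.92, SE 0.61, adjusted p = 0.0272) and Hist2h4 (log2 fold change 1.64, SE 0.51, adjusted p = 0.0235) completed the set. Leaving out single libraries ended several of these calls: Hist1h1b was lost without parental 2, 3 or 4 or shHIRA I 1 (adjusted p = 0.0518 to 0.0791) and Hist1h2be without parental 1, 2, 3 or 4, shHIRA I 2 or shHIRA II 2 or 4 (adjusted p = 0.051 to 0.114). Hist2h4 was lost without parental 3 or 4 or shHIRA I 1 (adjusted p = 0.0574 to 0.0775), and Hist1h4k without parental 1, 3 or 4 (adjusted p = 0.0553 to 0.0874). For Hist2h2aa1 it was parental 1 (adjusted p = 0.0541) or parental 4 (adjusted p = 0.0563), for Hist2h2aa2 parental 3 (adjusted p = 0.0505) and for Hist1h4d parental 4 (adjusted p = 0.0533). Of the transduction set, Hist1h2ac was lost without parental 2 (adjusted p = 0.0777) or parental 4 (adjusted p = 0.079) and Hist2h3c2 without parental 1 (adjusted p = 0.0663) or parental 2 (adjusted p = 0.0693).

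The members of the transduction set with shHIRA values not yet given overlapped the parental libraries in part. Hist1h2ac was at 0.523, 3.73, 1.71 and 0.792 CPM with shHIRA I and 1.88, 2.19, 2.05 and 1.52 CPM under the label shHIRA II, with shHIRA I replicates 1 and 4 inside the parental range. Hist1h2be was at 1.78, 4.74, 1.37 and 1.58 CPM with shHIRA I and 3.07, 4.09, 3.39 and 3.76 CPM under the label shHIRA II, with shHIRA I replicates 3 and 4 inside that range. Hist1h4j stood at 0.679, 1.17, 1.23 and 0.594 CPM with shHIRA I and 1.14, 0.979, 1.18 and 1.52 CPM under the label shHIRA II, above the parental range in all 8.

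Hist1h4h was at 0.261, 0.613, 1.03 and 0.495 CPM with shHIRA I and 1.82, 1.73, 1.03 and 1.4 CPM under the label shHIRA II, above the parental range in all 8. Hist1h4c was at 0.679, 0.446, 0.205 and 0.247 CPM with shHIRA I and 0.796, 0.921, 0.923 and 0.561 CPM under the label shHIRA II, with shHIRA I replicate 3 inside that range. Hist4h4, at 1.57, 0.613, 1.71 and 1.19 CPM with shHIRA I and 2.16, 2.53, 1.54 and 1.8 CPM under the label shHIRA II, had shHIRA I replicate 2 inside it. Each of these 3 H4 genes lay above the parental range in at least 7 of the 8 shHIRA libraries. Hist2h3c2 was at 0.627, 0.836, 0.889 and 0 CPM with shHIRA I and 0.626, 1.27, 0.923 and 0.842 CPM under the label shHIRA II, with no count in shHIRA I replicate 4. Hist1h3d was at 0.366, 1.0, 1.3 and 0.544 CPM with shHIRA I and 1.54, 1.55, 0.975 and 1.46 CPM under the label shHIRA II, above the parental range in all 8. None of these 5 was called in the pooled shHIRA comparison, with log2 fold changes from −0.39 (Hist2h3c2) to 0.36 (Hist4h4).

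Abundant members that passed no test spread widely within groups. Hist1h2ap was at 131, 19.1, 89.6 and 82.2 CPM with shHIRA I and 103, 132, 109 and 87.8 CPM under the label shHIRA II. Hist1h2ad was at 58.4, 5.91, 27.4 and 29.7 CPM with shHIRA I and 35.4, 46.7, 35.3 and 29.4 CPM under the label shHIRA II. Both groups overlapped the controls, with log2 fold changes in the pooled comparison of 0.44 (SE 0.35, adjusted p = 0.367) and 0.44 (SE 0.35, adjusted p = 0.38). Hist1h3c was at 1.84, 0.22, 2.02 and 2.57 CPM in parental cells, 2.37, 0.149, 1.02 and 0.456 with shLuciferase, 2.34, 0.284, 0.259 and 1.25 with shScramble, 2.82, 0.111, 1.98 and 1.63 with shHIRA I and 1.54, 1.67, 1.74 and 2.36 under the label shHIRA II. In shLuciferase and shHIRA I its lowest value was in the library lowest in S phase genes, in shScramble that library held the second highest value, and in shHIRA II the highest.

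Hist1h3h was at 0.369, 0.11, 0.363 and 0 CPM in parental cells, 0.652, 0.149, 0.56 and 0 with shLuciferase, 0.381, 0, 0.207 and 0.749 with shScramble, 0.888, 0, 2.67 and 0.544 with shHIRA I and 0.114, 2.53, 0.821 and 0.225 under the label shHIRA II, with 0 in 4 libraries and its highest values in shHIRA I replicate 3 and shHIRA II replicate 2. With 94.2% of its sequence shared, the split of reads with its copies is uncertain. Hist1h4n was at 0.492, 0, 0.414 and 0.411 CPM in parental cells, 1.72, 0.594, 1.27 and 2.28 with shLuciferase, 2.34, 0.852, 1.4 and 1.75 with shScramble, 0.993, 0.446, 0 and 0 with shHIRA I and 0.455, 0.461, 3.28 and 2.81 under the label shHIRA II, above the parental range in all 8 control libraries, and its log2 fold change on transduction was 2.19 (SE 0.90, adjusted p = 0.209). The remaining 14 tested members were called in no comparison, and their transduction log2 fold changes ran from −2.11 (Hist1h2bk) to 1.59 (Hist1h2br).

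Genes whose products make or destroy these mRNAs were listed as well. Of 24 genes for histone mRNA transcription and end processing, none was called on transduction (2 with an unadjusted p under 0.05). In the pooled shHIRA comparison 3 rose and 2 fell (20.8%, where 29.1% of all genes were called), with shHIRA I 3 rose and 2 fell (20.8%, against 19.6%), and in the libraries labelled shHIRA II 1 rose (4.17%, against 32.2%). These shares were near or below those of all genes, so the genes are named as single values and not as a change of the list. In the pooled comparison the higher ones were Coil, the scaffold of Cajal bodies (log2 fold change 0.49, SE 0.18, adjusted p = 0.0489), and the S phase transcription factors E2f1 (log2 fold change 0.62, SE 0.23, adjusted p = 0.0471) and E2f2 (log2 fold change 1.04, SE 0.29, adjusted p = 0.0124). The lower ones were Cstf2 (log2 fold change −0.37, SE 0.11, adjusted p = 0.0197), a subunit of the cleavage factor that also serves ordinary poly(A) sites, and its relative Cstf2t (log2 fold change −0.34, SE 0.09, adjusted p = 0.0107). With shHIRA I, Slbp, the stem-loop binding protein, was higher (log2 fold change 0.56, SE 0.19, adjusted p = 0.0473) and Cstf2 lower (log2 fold change −0.77, SE 0.14, adjusted p = 0.000905). Coil (log2 fold change 0.63, SE 0.22, adjusted p = 0.0485) and E2f2 (log2 fold change 1.43, SE 0.34, adjusted p = 0.00589) were higher and Cstf2t lower (log2 fold change −0.37, SE 0.12, adjusted p = 0.028). Under the label shHIRA II the gene that rose was Pou2f1, which encodes the octamer-binding factor Oct-1 (log2 fold change 0.97, SE 0.24, adjusted p = 0.00458).

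Of 19 genes for histone mRNA decay, Eri1, an exonuclease that trims the stem-loop end (log2 fold change 0.42, SE 0.11, adjusted p = 0.00884), and Smg5, of the nonsense-mediated decay pathway (log2 fold change 0.67, SE 0.14, adjusted p = 0.00154), rose in the pooled comparison. Eri1 (log2 fold change 0.60, SE 0.14, adjusted p = 0.00394) and Zfp36l1 (log2 fold change 0.68, SE 0.21, adjusted p = 0.0309), an RNA decay factor, rose with shHIRA I. Under the label shHIRA II, Lsm7 (log2 fold change 0.73, SE 0.27, adjusted p = 0.0422) and Smg5 (log2 fold change 0.94, SE 0.17, adjusted p = 0.000351) rose and Zfp36l1 fell (log2 fold change −0.71, SE 0.23, adjusted p = 0.0223). The calls were 2 of 19 (10.5%) pooled, 2 (10.5%) with shHIRA I and 3 (15.8%) under the label shHIRA II, below the 29.1%, 19.6% and 32.2% of all genes. On transduction, Lsm2, of the ring that binds the uridine-tailed end, fell (log2 fold change −0.70, SE 0.18, adjusted p = 0.0345). None of 17 listed RNAs known to lack a tail had a row in the deposited table, so their levels are unknown here and could not be tested.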

How the data were processed

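Poly(A) RNA of 20 melb-a libraries in 5 groups of 4 was analysed from the authors' gene tables of counts and TPM. The submitters' processing notes name mm10, bcl2fastq, kallisto and edgeR. The strand setting, annotation and versions are not given in the sources used here. Estimated counts made up the deposited count table; they equal TPM times 1 length per gene up to 1 factor per library (within 1e-06, log2, over 11317 genes), and were rounded before testing. The deposited TPM values, scaled by the authors per library, served for levels between genes and for limma. Columns were assigned by name: those of controls without a hairpin to parental, shHIRA without a numeral to shHIRA I. The labels do not say that a replicate number marks a shared batch, so the number was not used as a block.

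Genes with 10 or more counts in at least 4 libraries (13639) were tested with edgeR 4.0.16 (R 4.3.3, limma 3.58.1, DESeq2 1.42.0): quasi-likelihood F test, TMM, group means over all 20 libraries, Benjamini-Hochberg adjustment over all genes, calls under 0.05. SE is the log2 fold change divided by the root of F. CPM is counts per 1e6 of the effective library size, the library's total over the tested genes times its TMM factor. Depth (15.0 to 20.7 M counts, M for 1e6) leaves many members under 1 CPM, where changes are loose. Transcript ends and shared 31-base words came from GENCODE M21 on GRCm38, promoters from RefSeq GRCm38.p6. The test was run on simulated counts with known changes. Members, gene lists (S phase, histone mRNA processing and decay, melanocyte, fibroblast, keratinocyte, leukocyte and endothelium markers, untailed RNAs) and alternatives were chosen with earlier results of these data known. All 67 members may be named; full values were given for the 27 called in at least 1 of 7 comparisons and the 3 of each type highest in TPM, 32 in all. Alternatives were other scalings, filters and tools, the replicate block, mitochondrial share as a covariate, members with little shared sequence, and leaving out libraries.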

Additional observations from a re-analysis of the deposited data

Results flagged for a closer look

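In 161 groups of 4 libraries, 1 for each summed type in each group and for each named member in each group where it reached 10 counts in a library, the most extreme library was checked for its distance from the others, and 10 stood apart by Dixon's test; chance gives about 1 in 20 groups. In the libraries labelled shHIRA II, replicate 2 stood above the others for summed H4 (54.0 CPM), Hist1h4k (10.9 CPM) and Hist1h3b (2.02 CPM), and replicate 3 below them for Hist1h3d (0.975 CPM). With shHIRA I, replicate 3 was high for Hist1h4k (15.1 CPM) and Hist2h2be (9.71 CPM), replicate 2 for Hist1h2be (4.74 CPM), and replicate 4 was low for summed H3 (3.96 CPM). The H3 gene Hist2h3c1 had 0 counts in that replicate 4, against 24, 97 and 17 in replicates 1, 2 and 3. With shLuciferase, replicate 4 was high for Hist1h4h (2.11 CPM) and replicate 1 low for Hist3h2a (14.2 CPM).

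By the test of shHIRA II minus shHIRA I, 11 members differed between the libraries of these labels. Hira fell with shHIRA I and overlapped the controls under the label shHIRA II, so these are not 2 measured losses of Hira set side by side. The log2 differences were 2.15 for Hist1h1b, 1.14 for Hist1h1c, 1.45 for Hist1h1d and 1.51 for Hist1h1e among the H1 genes. They were 2.22 for Hist1h3a, 1.69 for Hist1h3b and 2.35 for Hist1h3i among the H3 genes, and 1.63 for Hist1h4a, 1.49 for Hist1h4d and 1.59 for Hist2h4 among the H4 genes. Hist3h2a differed in the other direction, at −1.71.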

How the results depend on the processing

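No called member changed direction under any alternative run. Of 1679 values of the called members under alternatives, 1444 kept their direction and their side of the threshold and 235 kept the direction but lost the call. Member calls in the pooled shHIRA comparison (6) became 1 with mitochondrial share as a covariate. Leaving out the 2 libraries of lowest mitochondrial share, an alternative chosen after seeing the data, gave 3 for the pooled comparison, 2 for shHIRA I (from 1) and 7 for shHIRA II minus shHIRA I (from 11). The shHIRA I count was 2 without a filter on low counts, 4 with DESeq2, 3 with limma on log2(TPM + 0.5) and 2 with the covariate. The shHIRA II count (10) was 2 with the covariate. The count for shHIRA II minus shHIRA I was 6 without a filter, 3 with only the groups compared and 6 with the covariate. The transduction count (11) was 6 without a filter and 17 with DESeq2, and the count of both shHIRA groups against parental cells (19) was 12 with only the groups compared. Leaving out each library in turn gave 3 to 8 calls in the pooled comparison, 1 to 4 with shHIRA I, 4 to 14 between the hairpins, 5 to 15 on transduction and 11 to 20 against parental cells. Without the member of highest CPM, the log2 difference of H1 was 0.485 in the pooled comparison and 1.32 for shHIRA II, and on transduction that of H2A was 0.291 and that of H2B 0.948. Over members with under 50% of shared words, H2A was at −0.929 in the pooled comparison, −0.380 for shHIRA I, −1.48 for shHIRA II, −1.10 between the hairpins and 1.06 on transduction, and H3 at 2.08 on transduction. The summed types, which carry no test, changed sign in 25 of 650 values, in 9 of 25 differences. Besides those above, without the leading member H2A turned to −0.04 pooled (from 0.24), −0.06 for shHIRA I (from 0.08) and −0.02 for shHIRA II (from 0.41), and H4 to −0.20 for shHIRA I (from 0.07). H3 for shHIRA I (−0.01) was 0.22 as a sum of TPM and 0.06 without scaling factors. Leaving out single libraries took shHIRA I from −0.10 to 0.35 for H2A, −0.14 to 0.28 for H3 and −0.33 to 0.30 for H4, and H2B between the hairpins from −0.17 to 0.42. Apart from the alternatives that change which genes or libraries enter, the cause was not tested. The replicate numbers are shared between groups, but of 40 same-numbered pairs 20 had correlated deviations over 0.1 (−0.347 to 0.526) and 12 of 20 libraries correlated best with their own number. Some pairs thus deviated together and others did not, which is a hint from the data and not the design, and the numbers were not taken as pairing. With the replicate as a block, calls were 6 in the pooled comparison, 3 with shHIRA I (from 1), 11 with shHIRA II, 13 between the hairpins, 0 between the controls, 12 on transduction and 19 against parental cells. Depth limits the members under 1 CPM, whose calls rest on few counts per library.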
